A study of Danio rerio with 7 samples.

Results

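Of the 5166 peaks of Cdx4 called in whole zebrafish embryos at the bud stage, 1310 (25.4%, exact binomial 95% interval 24.2 to 26.6%) overlapped no Sall4 peak and had their centre more than 5 kb from every domain of H3K27ac and H3K4me3. These domain-distant Cdx4-only peaks were chosen by measured values, namely the overlaps and distances between the 4 deposited lists of intervals, so their number, their lack of Sall4 overlap and their distance beyond 5 kb are set by the choice and are described without a test. They were 46.5% of the 2815 Cdx4 peaks without Sall4. On the 25 assembled chromosomes there were 1152, and 158 lay on unplaced scaffolds, which are described apart. The mapping was done by chromatin immunoprecipitation and sequencing (ChIP-seq), with 1 library each for Myc-tagged Cdx4, Myc-tagged Sall4, H3K27ac and H3K4me3 from embryos of the Tu strain, and with 3 input libraries that were not analysed here. Both factors were precipitated with an anti-Myc antibody, and each mark with an antibody of its own. All libraries came from wild-type Tu embryos that were either left without injection or given mRNA at the 1-cell stage. The labels do not say which applied to which library. Wild-type embryos carry no Myc-tagged Cdx4 or Sall4, so the libraries of both factors must come from embryos given mRNA. For the marks and the inputs this stays unknown. A factor peak is therefore a site of tagged protein added by injection, in a mixture of all the cells of the embryo. It need not be a site of the embryo's own Cdx4 or Sall4. With 1 library per target there is no replicate error. The intervals given cover counting error alone, and neighbouring peaks are not independent observations.

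Cdx4 belongs to the caudal homeodomain proteins, which bind DNA and control transcription. In zebrafish it acts in the formation of the posterior body and in the control of hox genes, and embryos that lack it have defects of blood formation. Sall4, a DNA-binding zinc finger protein related to fly spalt, is known for its part in pluripotent and early mesodermal cells. H3K27ac marks active enhancers and promoters and H3K4me3 marks promoters, so a factor peak far from both lies outside the elements that these marks usually outline. A mark in a small share of the cells of an embryo can stay under the threshold for a called domain, and neither thresholds nor sequencing depths are stated in the labels or files. Being far from a called domain is thus not the same as lacking the mark. Positions refer to zebrafish assembly Zv8, read from the scaffold names. No genome or annotation of that assembly was used here, so neither genes nor base sequences are given for the sites.

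Domain-distant Cdx4-only peaks were thinly spread over a large territory. On assembled chromosomes, 1154.9 Mb of 1321.3 Mb (87.4%) lay more than 5 kb from every domain, and this territory held 0.997 such peaks per Mb. Cdx4-only peaks in the remaining sequence, within 5 kb of a domain or inside one, stood at 8.57 per Mb. That value pools unlike parts, with 58.6 per Mb for peak centres inside a domain. Outside domains the density was 6.36 per Mb at less than 1 kb and 2.41 per Mb from 1 to 5 kb. The gap between 8.57 and 0.997 is thus not a step at the 5 kb limit. All bases up to the last listed position of a chromosome were counted, including any where no peak could be called. The part of chromosome 4 beyond its middle gave 32.7 Mb of the territory over 5 kb from domains and held 1 such peak. The effect of such sequence on the densities was not tested. The density kept falling beyond the 5 kb limit. From 5 to 10 kb from a domain there were 1.55 Cdx4-only peaks per Mb (exact Poisson 95% interval 1.33 to 1.80), from 25 to 50 kb there were 1.12 (0.995 to 1.26), and beyond 100 kb there were 0.511 (0.433 to 0.599).

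Cdx4 peaks that overlapped Sall4 thinned out more steeply with distance. They had about the same density as Cdx4-only peaks at 5 to 10 kb, at 1.59 per Mb (1.37 to 1.83). Beyond 100 kb they reached 0.176 per Mb (0.131 to 0.231), and the interval lay below that of the Cdx4-only peaks. In these 2 distance classes, which cover 116.6 and 295.5 Mb, there were 181 and 151 Cdx4-only peaks and 185 and 52 shared Cdx4 peaks. Sall4-only peaks had densities of 6.61 and 1.97 per Mb in the same classes. The Cdx4 and Sall4 lists differ in length and their thresholds are unknown, so the levels of the 2 lists are not compared.

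**Figure D1:**
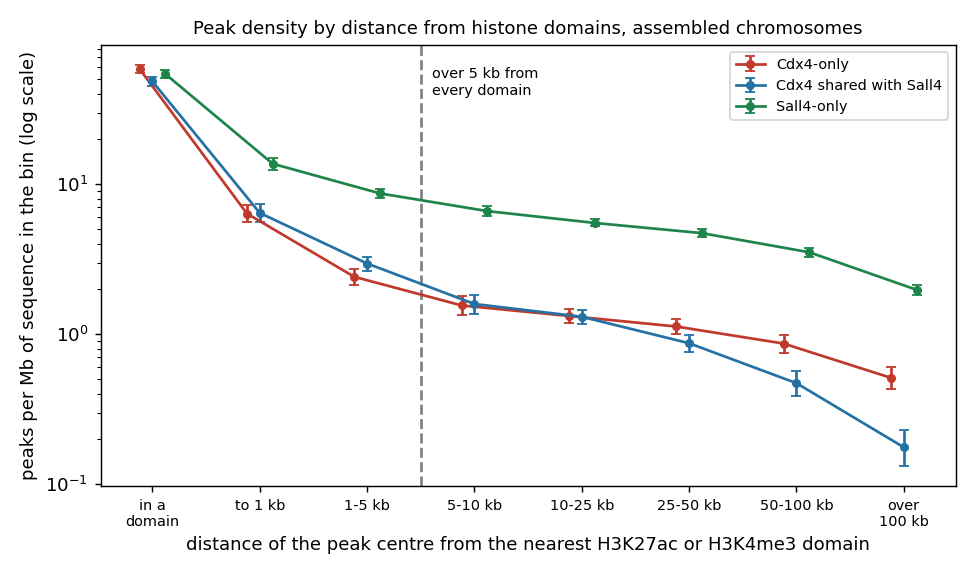
Peaks per Mb of sequence (log scale) against the distance of the peak centre from the nearest H3K27ac or H3K4me3 domain on assembled chromosomes, for Cdx4-only, shared Cdx4 and Sall4-only peaks; bars are exact Poisson 95% intervals of the counts. To the right of the dashed line are peaks over 5 kb from every domain, where the Cdx4-only density fell from 1.55 to 0.511 per Mb and the shared density from 1.59 to 0.176 per Mb.

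The domains nearest to these peaks were mostly H3K4me3 domains, which also made up 80.8% of all domains. Over the 1152 peaks on chromosomes, the nearest domain lay a median of 29264.5 bp away (order-statistic 95% interval 26975.5 to 31710.5 bp, quartiles 13633 and 62082.75 bp). Counting the scaffold peaks too, with those on a scaffold without a domain placed beyond all others, the median was 34023 bp. An H3K27ac domain was the nearer of the marks for 336 peaks (29.2%, 26.6 to 31.9%), against 42.8% (39.5 to 46.1%) of the 893 shared peaks over 5 kb from domains. Of the domain-distant Cdx4-only peaks, 534 (46.4%) were over 100 kb from any H3K27ac domain, and 151 (13.1%) were that far from both marks. Among shared peaks beyond 5 kb, the same shares were 27.7% and 5.82%.

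The stretches between domains that held these peaks were long. There were 12996 domain-free stretches over 10 kb, with a median length of 51309 bp, and 920 of them (7.08%) held a domain-distant Cdx4-only peak. The stretch around such a peak had a median length of 145769 bp. A long stretch offers more positions over 5 kb from its ends, which favours it in any such count. Of these stretches, 746 held 1 such peak, 129 held 2 and 45 held 3 or more, with 5 as the most in 1 stretch. Of the stretches with 5, one spanned 645201 bp on chromosome 9 (14115999 to 14761199) and also held 16 Sall4 peaks. Others with 5 were much shorter, at 78101 bp on chromosome 23 (35148299 to 35226399) and 73701 bp on chromosome 3 (20720699 to 20794399).

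The 5 peaks farthest from a domain scored from 46 to 78 and had no other Cdx4 or Sall4 peak within 50 kb. On chromosome 9 at 40208691 to 40208790, a peak with a score of 78 was 637742.5 bp from the nearest H3K4me3 domain and 261398 bp from the nearest Sall4 peak. The next in distance were on chromosome 18 at 31721023 to 31721122 (score 48, 603327.5 bp from a domain) and on chromosome 14 at 29020777 to 29020876 (score 74, 515628.5 bp). They were followed by peaks on chromosome 6 at 34742562 to 34742661 (score 58, 514013.5 bp) and chromosome 7 at 63519378 to 63519477 (score 46, 510129.5 bp). The last of these was also 1449027 bp from the next Cdx4 peak. All 5 had another domain-distant Cdx4-only peak as their nearest Cdx4 neighbour, at 241146 bp or more.

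The 5 kb limit cut through a continuous range of distances. Just inside it were peaks on chromosome 11 at 25564536 to 25564635 (5014.5 bp from an H3K27ac domain, score 298), chromosome 7 at 38692944 to 38693043 (5095.5 bp from an H3K4me3 domain, score 68) and chromosome 3 at 31642125 to 31642224 (5125.5 bp from an H3K4me3 domain, score 63). Just outside it were Cdx4-only peaks on chromosome 21 at 8530644 to 8530743 (4995.5 bp, score 73), chromosome 17 at 20902171 to 20902270 (4979.5 bp, score 33) and chromosome 13 at 45336894 to 45336993 (4956.5 bp, score 181).

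Scores of the domain-distant Cdx4-only peaks had the lowest median of the 5 groups of Cdx4 peaks compared. The score is the authors' own value per peak, of unstated meaning, and was used to rank peaks within the Cdx4 list. It ran from 26 to 420 among these peaks, with a median of 67 (order-statistic 95% interval 66 to 69), where the whole Cdx4 list ran from 26 to 1028 with a median of 83. When the list was divided into 4 equal score groups, 130 of the 1310 peaks (9.92%, 8.36 to 11.7%) were in the top group, which holds 25% of all Cdx4 peaks. The bottom score group, again 25% of the list, held 561 of them (42.8%, 40.1 to 45.6%). From best to worst score, these peaks supplied 10.1%, 19.7%, 28.3% and 43.5% of the 4 groups.

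Both conditions of the choice went along with lower scores. Among peaks over 5 kb from domains, the shared peaks had a median score of 85 (83 to 87) and 26.3% of them were in the top score group (23.5 to 29.2%). Among Cdx4-only peaks, those inside a domain had a median of 88 (85 to 91) with 30.9% in the top score group (28.1 to 33.8%), and those outside but within 5 kb of a domain had a median of 76 (73 to 78) with 14.1% (11.1 to 17.6%). Shared peaks within 5 kb of a domain stood highest, at a median of 99. On chromosomes, the median score of Cdx4-only peaks was 88 for the 924 whose centre was inside a domain, 71 at 5 to 10 kb and 65 beyond 100 kb. Scores come from the same library that defined the peaks, and no replicate library was available to test these differences.

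**Figure D2:**
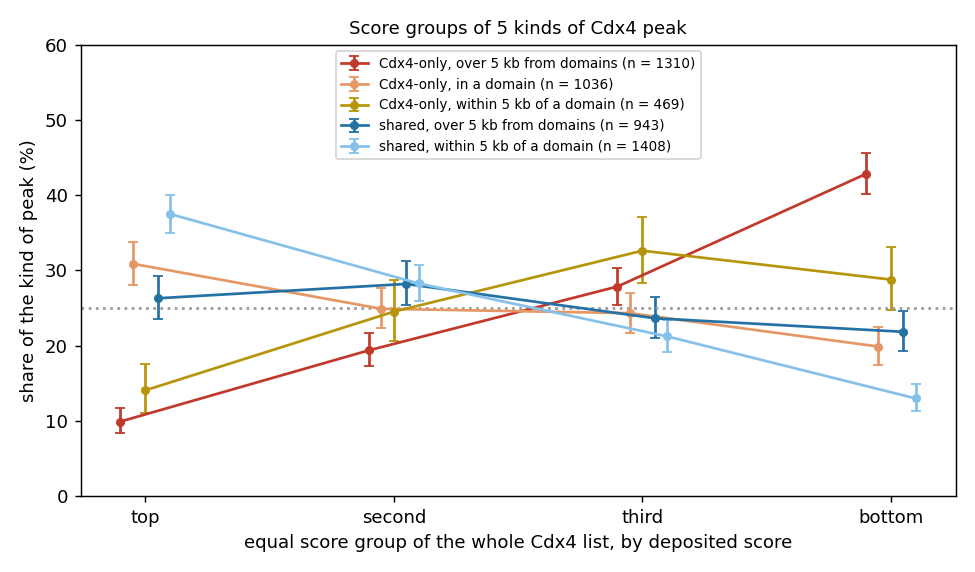
Share of each kind of Cdx4 peak (%) in the 4 equal score groups of the whole Cdx4 list, with exact binomial 95% intervals; the dotted line is the 25% that each score group holds of the list. The domain-distant Cdx4-only peaks (red) rose from 9.92% in the top score group to 42.8% in the bottom score group, and the shared peaks within 5 kb of a domain fell from 37.5% to 13.0%.

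A few of these peaks nonetheless ranked near the head of the Cdx4 list, and they fell into isolated sites and sites beside other peaks. The 10 top-scoring ones on chromosomes had scores from 262 to 420 and lay on 9 chromosomes, between 5014.5 and 41353.5 bp from a domain. The highest, on chromosome 12 at 32302402 to 32302501 with a score of 420, ranked at position 29 of the Cdx4 list. It stood alone, with the nearest Sall4 peak 59179 bp and the nearest other Cdx4 peak 162485 bp away.

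Isolation of that kind was shared by 2 other high-scoring peaks. The peak on chromosome 18 at 44713247 to 44713346 (score 412) was 58793 bp from a Sall4 peak and 58774 bp from another Cdx4 peak. The peak on chromosome 19 at 47938881 to 47938980 (score 317) was 132412 bp and 132445 bp from them. Both of these had a shared site as the nearest Cdx4 neighbour, so the Sall4 and Cdx4 distances nearly coincide.

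Other high-scoring peaks had a Sall4 peak within 2 kb. On chromosome 3 at 20742324 to 20742423, a peak with a score of 407 was 1418 bp from a Sall4 peak and 1424 bp from a shared Cdx4 peak. On chromosome 1 at 53447625 to 53447724, a peak with a score of 313 was 618 bp from a Sall4 peak, 25275.5 bp from an H3K4me3 domain and 601925.5 bp from an H3K27ac domain. On chromosome 16 at 19044294 to 19044393, a peak with a score of 262 had a shared Cdx4 peak 104 bp away and a Sall4 peak that it did not overlap at 117 bp. The peaks on chromosome 1 at 36316889 to 36316988 (score 278) and chromosome 7 at 56918816 to 56918915 (score 268) were 104 and 127 bp from a Sall4 peak. The nearest other Cdx4 peak was 124447 bp away for the former, and for the latter it was another domain-distant Cdx4-only peak at 227 bp. The remaining peaks of the 10 were near the distance limit, on chromosome 11 at 25564536 (score 298) and chromosome 5 at 22346956 to 22347055 (score 297, 5394.5 bp from an H3K27ac domain), each with another Cdx4-only peak close by, at 108 and 5556 bp.

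Sall4 was nearby at a minority of the domain-distant Cdx4-only peaks. Overlap with Sall4 was excluded by the choice, and peaks are 100 bp wide, so no centre of a Sall4 peak could be closer than 100 bp. Within 200 bp, 102 of the 1310 peaks (7.79%, 6.39 to 9.37%) had a Sall4 peak, where 9.19% of all Cdx4 peaks had a Sall4 peak that they did not overlap. Within 10 kb, 383 had one (29.2%, 26.8 to 31.8%), against 51.8% of all Cdx4 peaks. On chromosomes, where short scaffolds play no part, the share within 10 kb was 30.2% (27.6 to 33.0%) for the 1152 peaks, 36.2% (33.2 to 39.3%) for Cdx4-only peaks in a domain, 56.5% (51.8 to 61.2%) for those within 5 kb of one, and 70.8% (67.7 to 73.7%) for shared peaks over 5 kb from domains. The median distance to a Sall4 peak was 35149.5 bp (27400 to 40444 bp) for the domain-distant Cdx4-only peaks and 3896 bp (3337 to 4577 bp) for the shared peaks over 5 kb from domains. For Cdx4-only peaks in a domain it was 27554 bp (23451 to 31366 bp), and that interval overlaps that of the domain-distant ones. For Cdx4-only peaks within 5 kb of a domain it was 5717.5 bp (4355 to 8531 bp).

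By score group, the shares near Sall4 lay farthest apart at the bottom of the list. On chromosomes, 36.4% (27.8 to 45.8%) of the 118 domain-distant Cdx4-only peaks in the top score group had Sall4 within 10 kb, against 43.9% (38.7 to 49.2%) of the 362 other Cdx4-only peaks of that group, and these intervals overlap. In the next 2 groups the shares were 36.3% (30.2 to 42.8%) against 44.4% (39.1 to 49.7%) and 33.4% (28.4 to 38.8%) against 39.8% (34.9 to 44.9%), again with overlapping intervals. In the bottom score group the shares were 23.3% (19.5 to 27.4%) of 468 peaks and 42.4% (36.9 to 48.0%) of 321. The other Cdx4-only peaks pool those in a domain and those within 5 kb of one, with unlike shares near Sall4 (36.2% and 56.5% on chromosomes). Over all sequences these kinds numbered 320 and 66 in the top score group and 206 and 135 in the bottom one. The mix thus changed along the list, and its part in the wider gap was not tested. Differences between score groups were not tested.

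The choice removed every Cdx4 peak with a Sall4 centre closer than 100 bp, such as the 943 shared peaks over 5 kb from domains. Spacings to Sall4 thus begin at that cut. Among all 1310 peaks, 101 had their nearest Sall4 centre at 100 to 200 bp, 17 at 200 to 300 bp and 9 at 300 to 400 bp. Cdx4-only peaks inside domains were cut in the same way and had 102 of 1036 at 100 to 200 bp and 27 at 200 to 300 bp. With the closer spacings removed, a high count next to the cut does not show a preferred spacing. Of the 102 domain-distant peaks within 200 bp of Sall4, 25 (24.5%, 16.5 to 34.0%) were beside a Sall4 peak that overlapped another Cdx4 peak, and 77 were beside a Sall4 peak that no Cdx4 peak overlapped. Those Sall4 peaks had a median score of 125, where the whole Sall4 list had 88. The share of the whole Sall4 list that overlaps a Cdx4 peak is not given. The counts of 25 and 77 are thus a description and do not set these sites apart. The 102 Cdx4 peaks had a median score of 76 (67 to 81), against 67 for the other 1208, and 19.6% (12.4 to 28.6%) of them were in the top score group. The smallest spacing, 100 bp between centres, occurred on chromosome 7 at 56918589 to 56918688 (score 121), chromosome 9 at 39616658 to 39616757 (score 85) and chromosome 3 at 39021982 to 39022081 (score 94). With overlap set at 1 bp, such abutting peaks count as Cdx4-only, although they are within a peak's width of Sall4.

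**Figure D3:**
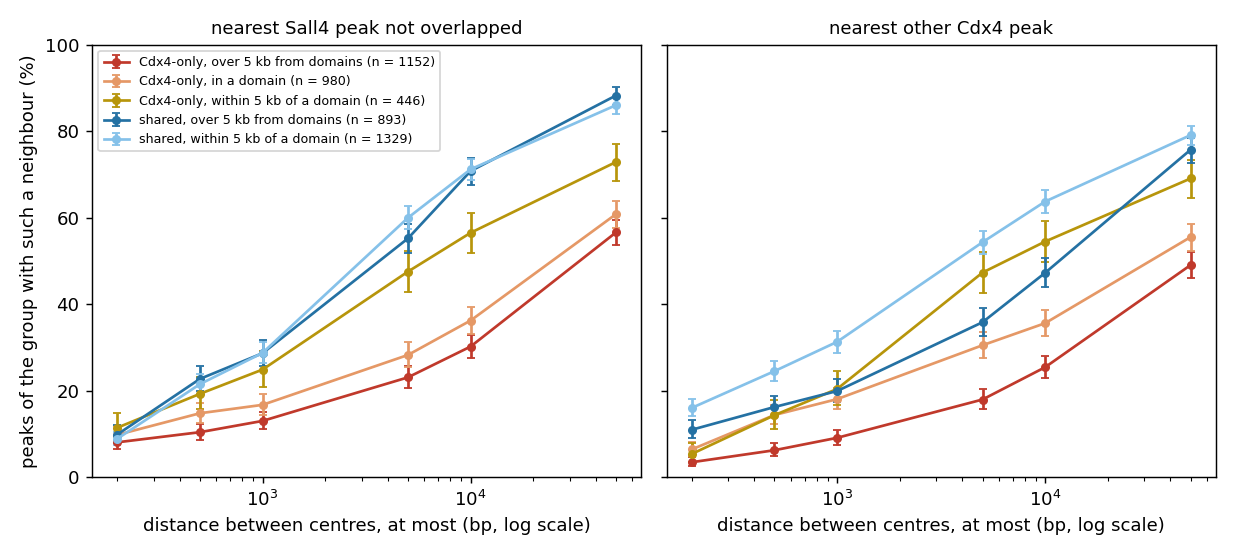
Share of the Cdx4 peaks of each group on assembled chromosomes (%) that had a Sall4 peak they did not overlap (left) or another Cdx4 peak (right) within a given distance between centres (log scale), with exact binomial 95% intervals. The domain-distant Cdx4-only peaks (red) are the lowest line in both panels, at 30.2% and 25.4% within 10 kb.

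On chromosomes, another Cdx4 peak was also less often nearby than for all Cdx4 peaks. Over all sequences, 51 of the 1310 peaks (3.89%, 2.91 to 5.09%) had another Cdx4 peak within 200 bp, against 9.16% of all Cdx4 peaks. Within 10 kb, 377 had one (28.8%, 26.3 to 31.3%), against 45.4%. On scaffolds the shares within 10 kb were alike, at 53.2% (45.1 to 61.1%) for these peaks and 52.2% (46.9 to 57.4%) for all Cdx4 peaks. The 158 peaks are themselves part of the 366 compared. All 18 on scaffold Zv8_NA542, all 8 on each of Zv8_NA1214 and Zv8_NA543 and all 6 on Zv8_NA3312 had such a neighbour. A few scaffolds thus weigh heavily in these shares. On chromosomes alone the share within 10 kb was 25.4% (22.9 to 28.1%), against 44.9% of all Cdx4 peaks there. It was 35.6% (32.6 to 38.7%) for Cdx4-only peaks in a domain and 47.3% (43.9 to 50.6%) for shared peaks over 5 kb from domains. The median distance to the next Cdx4 peak was 52818 bp (44232 to 61010 bp) for the domain-distant Cdx4-only peaks and 10902 bp (9485 to 12738 bp) for the latter. For Cdx4-only peaks in a domain it was 36232.5 bp (29144 to 43073 bp), and for those within 5 kb of one it was 6076 bp (4504 to 11383 bp).

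Where a Cdx4 neighbour was within 10 kb, it was another domain-distant Cdx4-only peak in 143 of 293 cases on chromosomes (48.8%, 42.9 to 54.7%) and a shared peak over 5 kb from domains in 105 (35.8%, 30.3 to 41.6%). These kinds made up 24.0% and 18.6% of all Cdx4 peaks on chromosomes. Peaks that close are mostly in the same domain-free stretch, so a neighbour over 5 kb from domains is favoured by position. When these peaks were chained to each other alone at spacings of up to 10 kb, 996 of the 1152 (86.5%) joined no run. The other 156 fell into 72 runs, of which 64 were pairs and the longest held 5. Other Cdx4 peaks and Sall4 peaks were left out of these chains. With them counted, 707 of the 1152 (61.4%, 58.5 to 64.2%) had no peak of either factor within 10 kb. For all Cdx4 peaks on chromosomes that share was 39.9%, with overlapping Sall4 peaks left out.

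Many of these peaks had no neighbour of either factor over a wide span. On chromosomes, 383 of the 1152 (33.2%, 30.5 to 36.0%) had no other Cdx4 peak and no Sall4 peak within 50 kb, against 20.1% of all Cdx4 peaks on chromosomes. The same held for 29.8% (26.9 to 32.8%) of Cdx4-only peaks in a domain and 19.1% (15.5 to 23.0%) of those within 5 kb of one. It held for 8.51% (6.76 to 10.5%) of shared peaks over 5 kb from domains and 9.56% (8.03 to 11.3%) of those within 5 kb, where the overlapping Sall4 peak itself was left out. Of the isolated peaks, 201 were also over 50 kb from every domain. The 383 isolated peaks had a median score of 65 (62 to 69), and 8.36% (5.78 to 11.6%) were in the top score group. Peaks with Sall4 within 10 kb had a median of 75 (70 to 77) and 12.4% (9.09 to 16.3%) in the top score group. The 348 peaks with Sall4 within 10 kb were also closer to domains, at a median of 17457 bp against 37377 bp for the 804 without.

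Clusters of domain-distant Cdx4-only peaks were few, and the 2 fullest windows also held other Cdx4 peaks and Sall4 peaks. In windows of 100 kb on chromosomes, 833 windows held 1 such peak, 102 held 2 and 35 held 3 or more. The 35 windows held 115 peaks (9.98% of those on chromosomes). A Sall4 peak was present in 27 of the 35 windows (77.1%), against 528 of the 970 windows with any such peak (54.4%). A domain of either mark was present in 27 of the 35, and a shared peak over 5 kb from domains in 17. In 16 of the 35 windows all Cdx4 peaks were of the domain-distant Cdx4-only kind. For domains, shared peaks and this last count, the share over the 970 windows is not given. Whether the 35 windows differ in these from the others is therefore not shown.

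The window with the most, chromosome 23 at 35200001 to 35300000, held 6 domain-distant Cdx4-only peaks with scores from 48 to 203, among 13 Cdx4 and 9 Sall4 peaks, 2 H3K27ac and 2 H3K4me3 domains. The next, on chromosome 3 at 20700001 to 20800000, held 5 of them within 15915 bp, with scores from 85 to 407, among 18 Cdx4 and 16 Sall4 peaks. Ties between windows with 4 were settled in favour of more Cdx4 peaks. The Cdx4 counts of those named below are thus partly set by the choice. On chromosome 4, the window at 13500001 to 13600000 held 4 among 13 Cdx4 and 10 Sall4 peaks, with scores from 60 to 116. On chromosome 2 at 31000001 to 31100000 there were 4, with scores from 98 to 127, among 9 Cdx4 and 15 Sall4 peaks, and this window had 0 H3K27ac domains and 1 H3K4me3 domain. On chromosome 9 at 25400001 to 25500000 there were 4 of the 5 Cdx4 peaks of the window, with scores from 69 to 97 and 9 Sall4 peaks. The clusters on chromosomes 2 and 3 thus had lowest scores of 98 and 85, above the median of the whole Cdx4 list.

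**Figure D4:**
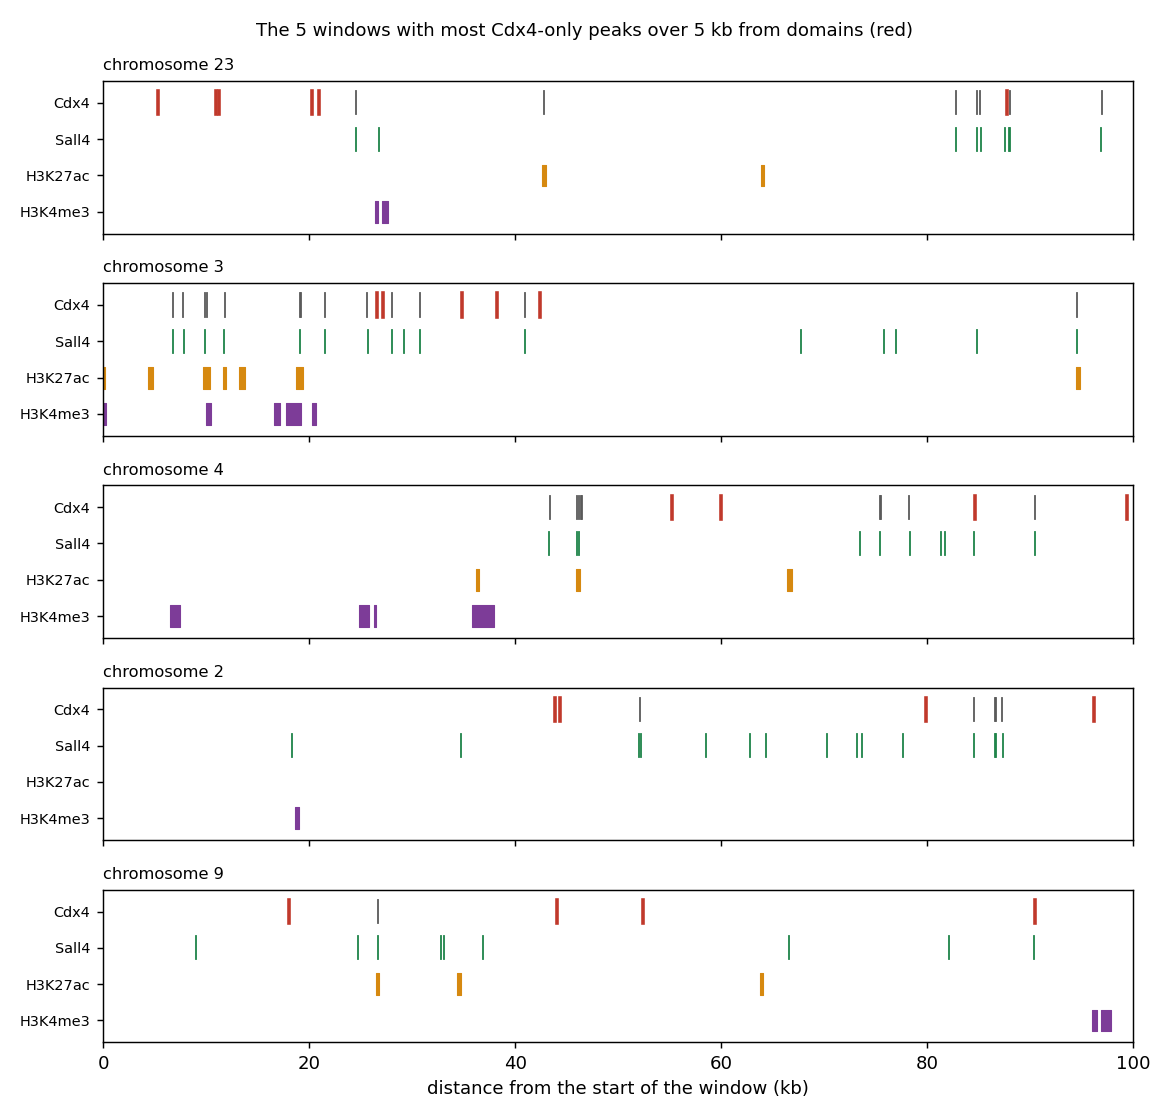
Maps of the 5 windows of 100 kb with the most domain-distant Cdx4-only peaks (red ticks), with the other Cdx4 peaks (grey ticks), Sall4 peaks (green ticks) and H3K27ac and H3K4me3 domains (orange and purple blocks, to scale), against the distance from the start of the window (kb). Ties between windows went to the one with more Cdx4 peaks. In the chromosome 3 window the 5 red ticks are within 15.9 kb, to the right of most domains, and the chromosome 2 window has 1 domain.

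Every assembled chromosome carried domain-distant Cdx4-only peaks, from 24 on chromosome 22 to 76 on chromosome 7. Their share of a chromosome's Cdx4 peaks ran from 16.3% (12.1 to 21.3%, 44 of 270) on chromosome 23 to 33.2% (26.6 to 40.3%, 64 of 193) on chromosome 9, around 24.0% for all chromosomes. The intervals of chromosomes 11 and 14, at 17.4% (12.2 to 23.7%) and 17.1% (12.1 to 23.0%), also lay below 24.0%, and that of chromosome 4, at 32.4% (24.8 to 40.8%), above it. With 25 intervals at 95%, some are due to miss the common value by counting error. Per Mb of territory over 5 kb from domains, the chromosomes ran from 0.582 on chromosome 8 to 1.37 on chromosome 19, with a median of 1.04. Chromosome 9 was high by this measure too, at 1.32. Chromosomes 4 and 23 changed order, with 0.724 on chromosome 4 and 1.15 on chromosome 23. The value of chromosome 4 is an average over very unlike parts, described below. A high share of a chromosome's Cdx4 peaks is thus not the same as a high density.

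**Figure D5:**
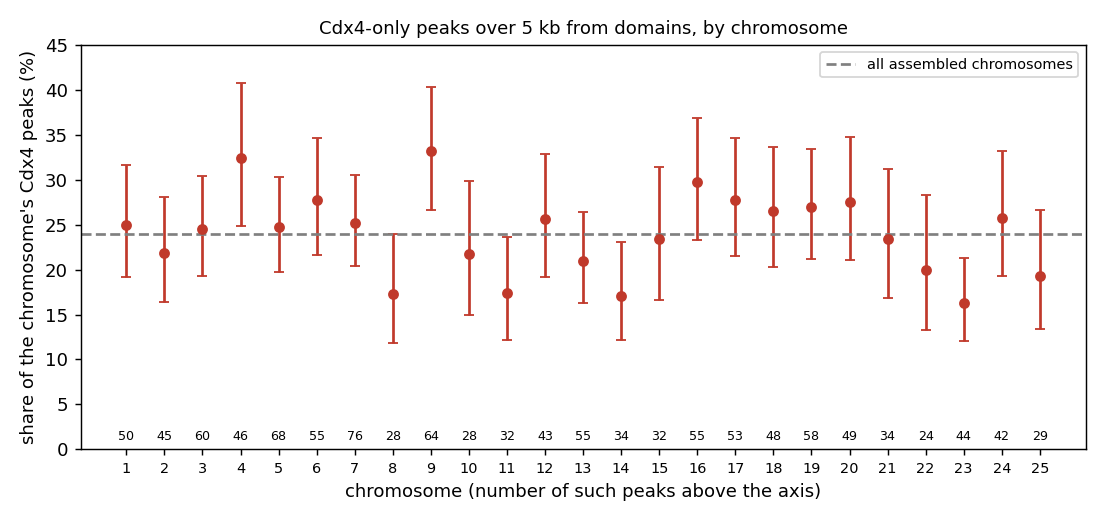
Share of each chromosome's Cdx4 peaks (%) that overlapped no Sall4 peak and lay over 5 kb from domains, with exact binomial 95% intervals and the number of such peaks above the axis; the dashed line is the share over all assembled chromosomes, 24.0%. Chromosomes 4 and 9 have the highest shares and chromosome 23 the lowest.

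Chromosome 4 held 46 of the 1310 peaks (3.51%, 2.58 to 4.66%), an interval that includes the 2.75% of all Cdx4 peaks. Of the 46, 45 lay in its lower coordinates, as did 138 of all 142 Cdx4 peaks of the chromosome. The long arm of zebrafish chromosome 4 is known to be rich in repeats and heterochromatin. Its bounds in assembly Zv8 were not used here, so the chromosome was divided at its middle. The part up to position 35784249 had 45 domain-distant Cdx4-only peaks in 30.9 Mb over 5 kb from domains, or 1.46 per Mb. The part beyond it had 1 in 32.7 Mb, or 0.0306 per Mb. Both factor lists were sparse there, with 138 Cdx4 peaks up to the middle and 4 beyond it, and 271 and 5 Sall4 peaks. H3K27ac domains numbered 128 and 14, and H3K4me3 domains 537 and 319.

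On unplaced scaffolds the distance condition was mostly met because there was no domain to be near. The 158 peaks lay on 99 scaffolds and were 43.2% (38.0 to 48.4%) of the 366 Cdx4 peaks on scaffolds, against 24.0% on chromosomes. For 125 of them (79.1%) the scaffold held no domain of either mark, and for 98 it held no Sall4 peak that the peak did not overlap. Their scores were lower than on chromosomes, with a median of 54.5 (49 to 63) against 68 (67 to 70). In the bottom score group were 58.9% (50.8 to 66.6%) of them, against 40.6% (37.8 to 43.5%) on chromosomes. Scores of all Cdx4 peaks were lower on scaffolds too, with a median of 73 (69 to 78) against 83 (82 to 84). Of all 366 scaffold Cdx4 peaks, 38.8% (33.8 to 44.0%) were in the bottom score group.

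Several scaffolds carried long rows of low-scoring peaks. Scaffold Zv8_NA542, which the lists reach to 81.9 kb, held 18 of these peaks, all with scores from 27 to 78 and with a median distance of 2063 bp to the next Cdx4 peak. It held 19 Cdx4 peaks, 1 Sall4 peak and 0 domains. Scaffold Zv8_NA543 held 8 with scores from 34 to 63, and Zv8_NA3312 held 6 with scores from 26 to 64, both with 0 Sall4 peaks and 0 domains. Scaffold Zv8_NA1214 held 8, with scores from 36 to 155, and 3 Sall4 peaks. The top-scoring scaffold peaks included those on Zv8_NA1727 at 2528 to 2627 (score 275) and 3335 to 3434 (score 228). These were 118 and 162 bp from a Sall4 peak. Another was on Zv8_NA7415 at 262 to 361 (score 228), a scaffold with no other Cdx4 peak and no Sall4 peak. On chromosomes the median distance to the next Cdx4 peak was 52818 bp.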

How the data were processed

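Per the labels, each list came from 1 library. The authors deposited peaks for Cdx4 and Sall4 and domains for H3K27ac and H3K4me3, with a score per interval of unstated meaning. Peak names carry the prefix of the GPS caller, per the names in the deposited lists. The submitters' processing notes name Bowtie 0.12.7 and CASAVA 1.4 with no roles. Thresholds, read depth and the use of the input are not stated, so the effect of depth on the lists is unknown.

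Positions count from 1 and include both ends. Sharing 1 bp was overlap. Distances ran from a peak centre to the nearest base of a domain or to another peak's centre. Sequence lengths were the last position reached by any list. Intervals are exact (Clopper-Pearson) binomial for shares, exact Poisson for densities and order-statistic for medians, at 95%. No test was run, because no target had a replicate. The code that chose the peaks and measured the distance to the next Cdx4 peak was tested on simulated lists. The code for the 95% intervals was not part of that test.

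The groups, measures and named positions were chosen with earlier results of these data known. Named are the 10 top-scoring peaks, the 5 farthest from a domain, the 3 on each side of the 5 kb limit, the 3 nearest to Sall4, the 5 fullest windows and the 3 top-scoring scaffold peaks. Ties between windows went to the one with more Cdx4 peaks, then by position. The fullest domain-free stretches and the 4 fullest scaffolds were picked after their values were seen. A planned motif search and gene assignment were not run, since no genome of assembly Zv8 was used here. Software was Python 3.11.15 with scipy 1.17.1, pandas 2.3.3, numpy 2.4.6 and, for plots, matplotlib 3.10.9.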

Additional observations from a re-analysis of the deposited data

How the results depend on the processing

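The number of domain-distant Cdx4-only peaks stayed within 1.5 times 1310 except with domains over 500 bp wide alone (2018) and with the better-scoring part of the Cdx4 list alone (386). The share in the top score group, 9.92%, was 14.4% with the better-scoring part of the domain lists and 17.9% with domains over 500 bp. It was 33.7% in the better-scoring part of the Cdx4 list, where the lower score groups are nearly absent by construction. Over all Cdx4 peaks the top score group holds 1292 and the next 1291, so 33.7% is not to be set against the 25% of the whole list. The share with Sall4 within 10 kb, 29.2%, was 32.8% at a limit of 2 kb, 24.8% at 10 kb, 21.0% with no Sall4 centre within 500 bp, 32.7% with domains over 500 bp, 37.6% in the better-scoring Cdx4 list and 21.0% with the better-scoring Sall4 peaks as neighbours. The share with another Cdx4 peak within 10 kb, 28.8%, was 32.1%, 24.7%, 24.4%, 32.9% and 32.4% under the first 5 of these settings, in the same order, and 25.4% on chromosomes alone. The median distance from a domain, 34023 bp, was 26832.5 bp at 2 kb, 42019.5 bp at 10 kb, 52048.5 bp with the better-scoring domains, 56576 bp with domains over 500 bp, 27055 bp in the better-scoring Cdx4 list and 29264.5 bp on chromosomes. The 35 windows with 3 or more became 21 with no Sall4 centre within 500 bp, 63 with the better-scoring domains, 83 with domains over 500 bp and 6 in the better-scoring Cdx4 list. The share on chromosome 4 stayed inside its interval under all 8 alternatives tried for it, and reading starts as counted from 0 moved none of these 7 results beyond its interval or 1.5 times. Asking for no Sall4 centre within 500 bp removed the 136 peaks that had one, all of them counted as within 10 kb. The fall to 21.0% under that setting is thus fixed by construction. A different limit or domain list changes which peaks are counted. Wherever a value moved for another reason, the cause was not tested. Read depth is unknown and limits every statement about a missing domain or Sall4 peak. The motif search was not run.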

Other observations

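The domains nearest to the domain-distant Cdx4-only peaks on chromosomes were no wider at the median than those of the whole lists. The 275 distinct nearest H3K27ac domains had a median width of 299 bp, against 399 bp over the list, and 2.55% of them carried a deposited score of 0, against 3.44%. The 701 distinct nearest H3K4me3 domains had a median width of 699 bp, the same as the list, and 3.14% had a score of 0, against 5.81%. Removing score-0 domains alone was not tried.

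Among spacings under 400 bp, that between these peaks and other Cdx4 peaks was also most frequent at 100 to 200 bp. Among all 1310 peaks, 9 had another Cdx4 centre closer than 100 bp, 42 at 100 to 200 bp, 27 at 200 to 300 bp and 7 at 300 to 400 bp. Cdx4-only peaks in a domain had the same most frequent spacing, with 16, 53, 32 and 31 of 1036 in these ranges. Within 200 bp, 3.89% of the domain-distant Cdx4-only peaks had another Cdx4 peak, against 9.16% of all Cdx4 peaks. Such close spacing is thus not particular to them.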
